A study of Microtus ochrogaster with 51 samples.

Results

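ENSMOCG00000017273, 1 of the 23038 gene IDs listed in the nucleus accumbens tables of the prairie vole (Microtus ochrogaster), was read only in females that were housed with their mate when they were sampled. It was chosen for that pattern, on the values given here, so its levels across the groups are a description and carry no test. In females paired for 2 weeks it averaged 69.2 ± 59.4 normalised counts (SD, n = 9), with 615 reads in all. In the other 33 libraries with read counts, from separated females and from males, it had 0 reads. Its level among the 2-week paired females ran from 1 read to 172 reads.

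Bulk polyadenylated RNA from the dissected nucleus accumbens was sequenced, with 1 library per animal, to compare voles housed with an opposite-sex mate for different times. After 2 weeks of pairing 10 females and 10 males were sampled, after 6 weeks of pairing 3 females and 3 males. A further 12 females and 13 males had 2 weeks with a mate followed by 4 weeks apart, an interval given by the treatment label while the treatment protocol states none. Partners share a pair name, and each library belongs to 1 of 4 cohorts: 2-week pairs make up cohorts 1 and 2, and separated and 6-week animals make up cohorts 3 and 4. All animals had been paired, and the labels give no strain, age, body weight or reproductive state. Normalised counts were deposited for 42 libraries with 20067514 to 37737711 reads on genes, and transcripts-per-million values (TPM, a level per unit of gene length with a common sum across libraries) for 51 libraries, among them all 6 libraries of the 6-week pairs.

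The nucleus accumbens is the ventral part of the striatum, receives dopamine from the midbrain and takes part in reward and motivation. In prairie voles, which form lasting bonds between mates, dopamine, oxytocin and vasopressin signalling in the ventral forebrain are known to take part in bond formation. Female prairie voles ovulate after mating rather than in spontaneous cycles, and contact with a male brings on oestrus. Neither table pairs the IDs with gene names, and 0 of them were found in the RefSeq gene table of the species (26397 genes, assembly MicOch1.0). The gene's name, role, position and sequence are therefore not given here, nor are marker genes of cell types, so the labelled tissue was not checked against its markers.

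In the 9 libraries of 2-week paired females with read counts, the level was lowest in pair 8, with 1.04 normalised counts from 1 read. Pair 9 had 18.2 normalised counts from 21 reads, pair 2 had 31.1 from 49 reads and pair 12 had 36.1 from 34 reads. Pair 10 had 53.7 normalised counts from 58 reads, pair 16 had 66.2 from 81 reads and pair 13 had 93.9 from 62 reads. The highest levels were in pair 14, with 144.8 normalised counts from 137 reads, and in pair 11, with 177.9 from 172 reads. The libraries thus formed a graded series, with 1 library near 0. The highest level was 171-fold the lowest, although the lowest rests on 1 read, whose 95% Poisson interval runs from 0.0264 to 5.81 normalised counts. Of the 8 steps between neighbours in this order, the 95% Poisson intervals of the 2 libraries were separate at 2 (pair 8 to pair 9, and pair 13 to pair 14). The intervals of the other neighbours overlapped, and the difference between neighbours was not itself tested. These intervals cover counting error only, since no molecular identifiers are recorded.

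**Figure D1:**
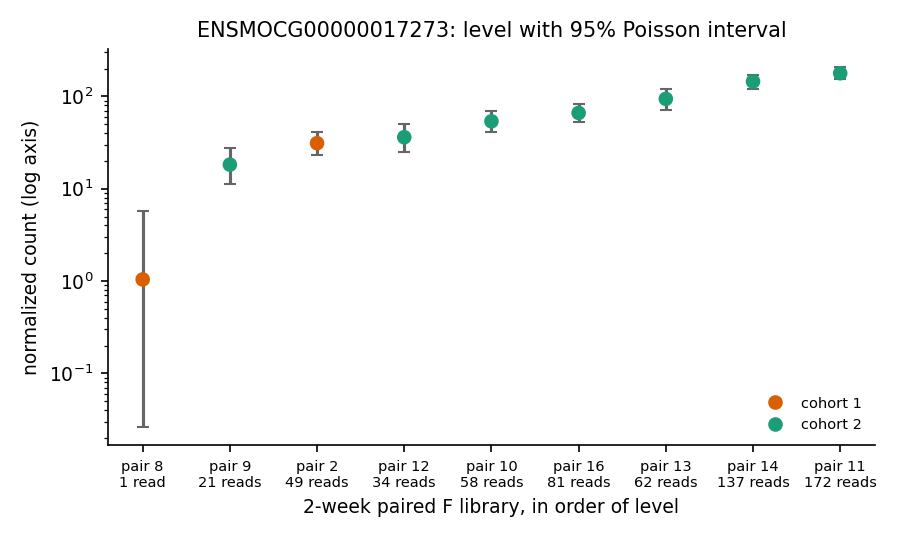
Normalised count (log axis) of ENSMOCG00000017273 in each of the 9 libraries of 2-week paired females, in order of level, with the 95% Poisson interval of its reads as bars and colour for the cohort. Pair 8 stands alone at 1.04 with a wide interval, and the other 8 libraries rise in steps from 18.2 to 177.9. Among these 8, the intervals of neighbours are separate only between pairs 13 and 14.

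The gene's level varied more between these females than that of most genes tested. Its SD of log2(normalised count + 1) over the 9 libraries was 1.94, against 0.40 for the median gene, and was above that of 13996 of the 14151 genes with a mean normalised count of at least 10 (98.9%). Without pair 8, whose level rests on 1 read, the SD was 1.11 and above that of 12824 genes (90.6%). These ranks are over genes of all levels. Whether the SD is high for a gene of this level was not tested. The coefficient of variation of the normalised count was 85.7% around a median of 53.7. Both libraries of cohort 1, pairs 2 and 8, were in the lower part of the range, with a mean of 16.1. The 7 libraries of cohort 2 ran from 18.2 to 177.9 with a median of 66.2, so pair 2 of cohort 1 fell inside their range and pair 8 below it. With 2 libraries in cohort 1, no comparison of cohorts was made.

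The TPM table gave nearly the same order of the 9 females, in which pairs 2 and 12 changed places, as did pairs 13 and 16. TPM was 0.0586 in pair 8, 1.05 in pair 9, 2.37 in pair 12, 2.47 in pair 2, 3.19 in pair 10 and 3.65 in pair 13. It was 4.15 in pair 16, 7.46 in pair 14 and 9.47 in pair 11. Pair 15, whose female is in the TPM table only, had 3.25 and so lay in the middle of the series. The mean over the 10 females was 3.71 ± 2.82 TPM (SD, n = 10) and the median 3.22 TPM. On this scale per length, the mean was above that of 3430 of 14151 genes (24.2%), and the median gene had 12.1 TPM. On average over these females the gene was thus below most of the genes tested. From the ratio of normalised count to TPM, its length as used by the authors was 0.410 to 0.418 times that of the median gene, which made it longer than 14.9% of the genes tested.

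In the females paired for 6 weeks TPM was 2.57 in pair 18 and 3.14 in pair 22, both of cohort 3, and 1.14 in pair 27 of cohort 4. The mean was 2.28 ± 1.03 TPM (SD, n = 3). All 3 values lay inside the range of the 2-week females, of which 2 were below the lowest 6-week value, 2 within the 6-week range and 6 above its highest. On the log2(TPM + 0.5) scale the mean was 1.40 ± 0.60 (SD, n = 3) at 6 weeks and 1.73 ± 1.17 (SD, n = 10) at 2 weeks. The difference of -0.33 was smaller than the SD of either group, and it carries no test, since the values of all paired females took part in choosing the gene. Without pair 27 of the 6-week group the difference was 0.0162, so its sign rests on that library. The duration of pairing and the cohort cannot be told apart in this comparison, because 2-week and 6-week pairs share no cohort.

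All 12 separated females had 0 reads of the gene, in 320396286 reads on genes together. A count of 0 there allows up to 0.00936 RPM (reads-per-million, as a rate of all reads on genes, from 3 reads over the group), while the 2-week paired females had 2.42 RPM. The 9 males paired for 2 weeks and the 12 separated males in the normalised count table also had 0 reads. For a single library of these groups the limit of 3 reads came to between 2.15 and 4.64 normalised counts, which is above the level of the pair 8 female and below that of the other 8 paired females. A library of a separated female or of a male with as little of the gene as the pair 8 female had would thus not be distinguishable from one without it. In the TPM table the gene was listed at 0 in all 38 libraries other than those of paired females, which adds 5 male libraries, 3 of them from 6-week pairs. The separated females come from cohorts 3 and 4, as do the 6-week paired females in which the gene was detected. These are bulk samples, in which fewer cells of a type and less RNA per cell cannot be told apart.

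**Figure D2:**
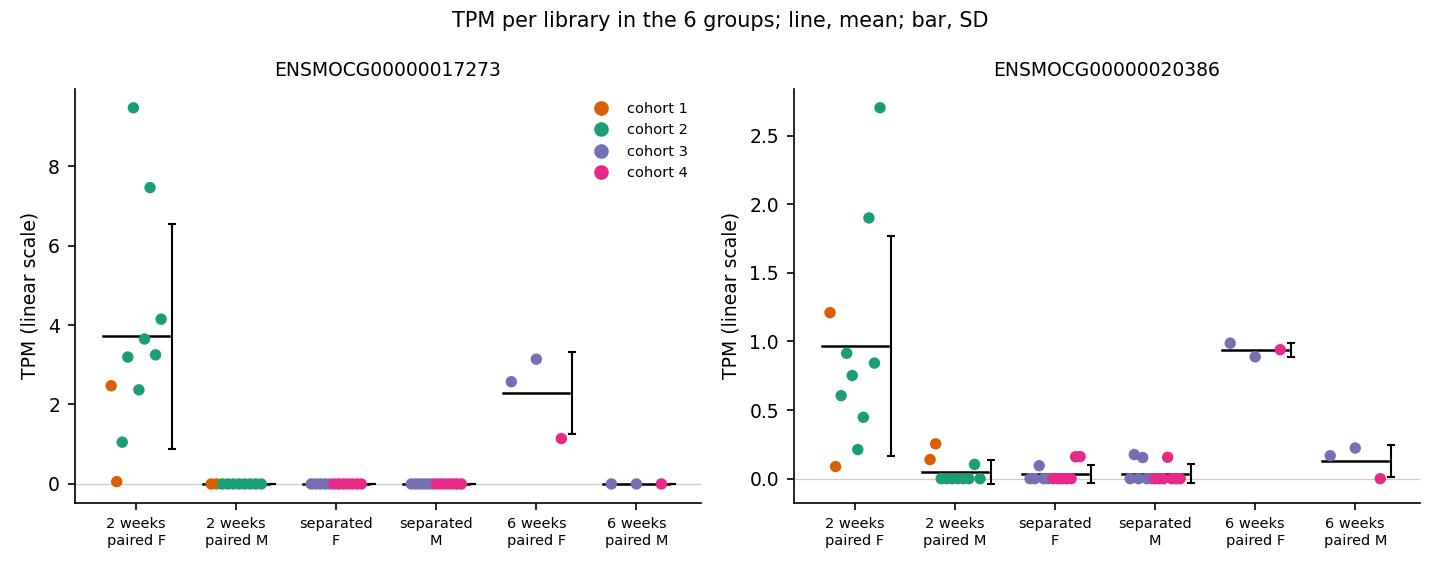
TPM (linear axis) of ENSMOCG00000017273 (left) and of ENSMOCG00000020386 (right) in every library of the 6 groups, with colour for the cohort, a line for the group mean and a bar for the SD. The left panel shows values above 0 in the 13 paired females alone, 0.0586 to 9.47 at 2 weeks and 1.14 to 3.14 at 6 weeks; in the right panel the 3 females paired for 6 weeks sit between 0.888 and 0.987, above the other groups with the exception of 2-week paired females.

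Among the 18800 genes with at least 1 read, ENSMOCG00000017273 was the only one with a read in all 9 libraries of 2-week paired females and in none of the other 33 (1 gene, 0.00532%). No gene had the same kind of pattern for 2-week paired males (9 libraries), separated females (12 libraries) or separated males (12 libraries), with 0 genes for each. None was read in all 21 libraries of females and no library of males, and none in all 21 libraries of males and no library of females. In the TPM table, too, it was the only gene above 0 in all 13 paired females and listed at 0 in all 38 other libraries. When a library was counted as positive from 3 reads on, no gene met the pattern, because pair 8 has 1 read of ENSMOCG00000017273. Without pair 8, a setting added after the data were seen, ENSMOCG00000017273 met the pattern at 3 reads and was again the only gene to do so. The gene was chosen for this pattern, so all these counts are a description.

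The gene nearest to it in this respect was ENSMOCG00000020386, which had at least 1 read in 9 of 9 libraries of 2-week paired females and in 8 of 33 others. Its reads in the 2-week females were 1 in pair 8, 2 in pair 12, 5 in pair 13, 8 in pair 9, 9 in pair 11, 11 in pair 10, 16 in pair 2, 23 in pair 14 and 35 in pair 16. Of the 33 other libraries with read counts none had more than 3 reads of it. Those with a read were 2 males of 2-week pairs, 3 separated females and 3 separated males. It was chosen on these libraries, so the contrast between them is a description. The 6-week libraries took no part in the choice, and there its TPM was 0.987 in pair 18, 0.888 in pair 22 and 0.940 in pair 27 among the females, and 0.167, 0.223 and 0 in the males of the same pairs. The mean over the females was 0.938 ± 0.0498 TPM (SD, n = 3) at 6 weeks and 0.967 ± 0.799 TPM (SD, n = 10) at 2 weeks. Separated females had at most 0.161 TPM (3 of 12 above 0) and separated males at most 0.176 TPM (3 of 13 above 0).

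Over the 9 libraries of 2-week paired females, the levels of ENSMOCG00000020386 and ENSMOCG00000017273 on the log2(normalised count + 1) scale had a Pearson r of 0.725 (two-sided exact permutation p = 0.0256, adjusted over 2 genes 0.0513). Spearman's rho was 0.567 (exact permutation p = 0.121, adjusted 0.241). Without pairs 8 and 11, the libraries farthest from the median of ENSMOCG00000017273, r was 0.548 (exact permutation p = 0.198), and within cohort 2 it was 0.47 (exact permutation p = 0.301). The relation did not pass the adjusted threshold. ENSMOCG00000020386 had a mean below 10 normalised counts over the 42 libraries and was thus not among the 14150 genes tested further on. The highest level of ENSMOCG00000020386 was in pair 16, which was below pairs 13, 14 and 11 for ENSMOCG00000017273. The next gene by the same rule, ENSMOCG00000016354, was at the edge of detection, with 28 reads in 6 of 9 libraries of 2-week paired females and reads in 3 of 33 others. Its r with ENSMOCG00000017273 was 0.284 (exact permutation p = 0.482, adjusted over 2 genes 0.482) and its rho 0 (exact permutation p = 1).

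The level of ENSMOCG00000017273 was next set against 4 measures of the libraries over the same 9 females. The total of reads on genes gave r = -0.134 and rho = -0.267 (exact permutation p = 0.718 and 0.49). The share of normalised counts in the 11 most abundant IDs gave r = 0.209 and rho = 0.50 (exact permutation p = 0.540 and 0.178), and the number of genes with a read gave r = -0.276 and rho = -0.393 (exact permutation p = 0.484 and 0.294). The score on the first principal component of all 42 libraries gave r = 0.542 and rho = 0.617 (exact permutation p = 0.121 and 0.0857). After adjustment over the 4 measures no r had a p below 0.483 and no rho a p below 0.343. Without the 2 libraries farthest from the median of each measure, r was 0.604 for the first component, 0.030 for the share of the most abundant IDs, -0.172 for the number of genes and 0.044 for the read total, whose sign turned. Within cohort 2 (n = 7) r was -0.418 for the read total, 0.432 for the share, -0.386 for the number of genes and 0.637 for the first component, each with an adjusted exact permutation p of 0.39. Without pair 8, which had the lowest level but no extreme value on these measures, r was -0.518 for the read total, 0.530 for the share, -0.484 for the number of genes and 0.688 for the first component (n = 8, adjusted exact permutation p = 0.22 for each).

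Which other genes track the level was then asked with limma on log2(normalised count + 1), with 1 slope per gene on the level of ENSMOCG00000017273 over the 9 females. None of the 14150 other genes passed an adjusted p of 0.05 (0 genes, 0.0%), the smallest adjusted p was 0.451, and 1365 genes had an unadjusted p below 0.05. The correlations with single genes ran from -0.944 to 0.943 with a median of -0.004, and 117 genes had an r above 0.8 and 46 an r below -0.8. Without pair 8, 35 of these 117 and 17 of these 46 remained past 0.8, and the medians moved from 0.837 to 0.728 and from -0.824 to -0.750. The histogram of r over all genes had 2 broad humps, near -0.5 and 0.5, rather than a single one at 0, and without pair 8 the humps lay farther out. Without pair 8, 3578 genes had an unadjusted p below 0.05 and again 0 passed the adjusted threshold in limma (smallest adjusted p 0.126). The first principal component had the r of 0.688 given above in these 8 libraries. With its score as a covariate over all 9 libraries, 572 genes had an unadjusted p below 0.05, beside 1365 with no covariate. The count was 261 with the cohort and 3075 with the read total as covariate. The part of the first component in the correlations of single genes was not tested further.

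**Figure D3:**
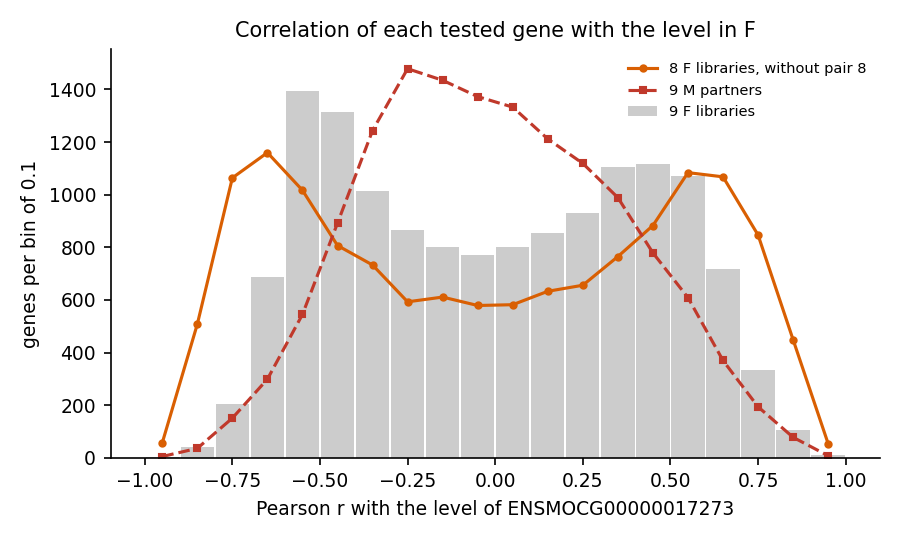
Number of genes per bin of 0.1 in Pearson r with the level of ENSMOCG00000017273 in the female, over the 14150 other genes, for the 9 females (grey bars), the females without pair 8 (solid line, 8 libraries) and the 9 male partners (dashed line). The distribution in females has a hump on either side of 0 and extends from -0.944 to 0.943, while that in male partners has a single broad hump. The male partners are shown with pair 8 included.

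The 4 genes most alike to it, 2 in each direction, were named by their r over these libraries, so r and its rank order are descriptions. ENSMOCG00000019265 had 82.3 normalised counts in pair 8, 135.3 in pair 2, 138.9 in pair 10, 142.4 in pair 12, 144.1 in pair 9, 163.3 in pair 16, 174.4 in pair 14, 200.7 in pair 11 and 206.0 in pair 13. Pair 8 was lowest for both genes and pairs 11, 13 and 14 were the top 3 for both (r = 0.943, rho = 0.833). Its slope was 0.19 ± 0.05 (SE) log2 units per log2 unit of ENSMOCG00000017273 (limma, adjusted p = 0.451). Without pairs 8 and 11 r was 0.740, and within cohort 2 it was 0.790.

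ENSMOCG00000017581 had 134.4 normalised counts in pair 8, 177.1 in pair 9, 185.5 in pair 2, 188.7 in pair 16, 202.9 in pair 12, 216.7 in pair 10, 219.7 in pair 13, 221.4 in pair 11 and 255.8 in pair 14. The order followed that of ENSMOCG00000017273 closely, apart from pair 16 and an exchange of pairs 11 and 14 (r = 0.937, rho = 0.933). Its slope of 0.13 ± 0.05 (SE) was the smaller of the pair with a positive r (limma, adjusted p = 0.451). Without pairs 8 and 11 r was 0.864, and within cohort 2 it was 0.797.

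In the opposite direction, ENSMOCG00000004192 had 844 normalised counts in pair 8, 738 in pair 9, 595 in pair 2, 592 in pair 10, 573 in pair 16, 564 in pair 13, 563 in pair 12, 533 in pair 14 and 511 in pair 11. It was highest in the pair 8 and pair 9 females, where ENSMOCG00000017273 was lowest, and nearly level from pair 2 to pair 12 (r = -0.944, rho = -0.90). Its slope was -0.11 ± 0.03 (SE; limma, adjusted p = 0.451). Without pairs 8 and 11 r was -0.815, and within cohort 2 it was -0.884.

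ENSMOCG00000000314 had 459 normalised counts in pair 8, 402 in pair 9, 334 in pair 12, 276 in pair 16, 264 in pair 2, 248 in pair 10, 221 in pair 13, 199 in pair 14 and 193 in pair 11. Its slope of -0.21 ± 0.05 (SE; limma, adjusted p = 0.451) was the steepest of the 4 in size (r = -0.914, rho = -0.917). Without pairs 8 and 11 r was -0.902 and within cohort 2 it was -0.974, so this relation rested least on the pair 8 library among the 4. In the TPM table, with the female of pair 15 added and other scaling, the 4 values of r over 10 libraries were 0.732 for ENSMOCG00000019265, 0.575 for ENSMOCG00000017581, -0.452 for ENSMOCG00000004192 and -0.738 for ENSMOCG00000000314. All 4 kept their sign there and were nearer to 0.

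**Figure D4:**
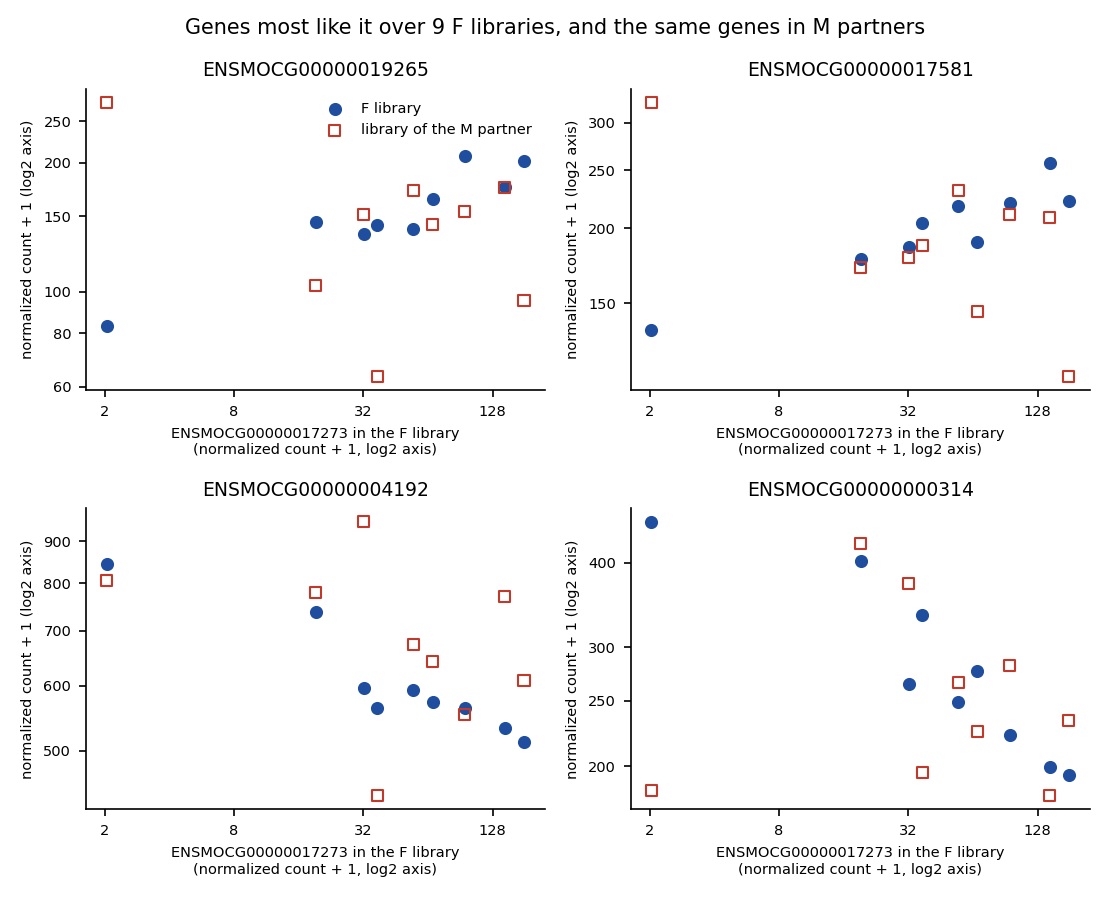
Normalised count + 1 of the 4 named genes (vertical, log2 axis) against that of ENSMOCG00000017273 in the female (horizontal, log2 axis), for the 9 females (filled circles) and for their male partners (open squares, at the female partner's horizontal position). Circles rise in the upper panels (r = 0.943 and 0.937) and fall in the lower panels (r = -0.944 and -0.914), with pair 8 at the far left, while the squares are scattered.

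The male partners, which have 0 reads of the gene themselves, took no part in naming these genes. Against the level of ENSMOCG00000017273 in the female of the pair, r over the 9 males was -0.411 for ENSMOCG00000019265, -0.675 for ENSMOCG00000017581, -0.348 for ENSMOCG00000004192 and 0.000275 for ENSMOCG00000000314 (limma, adjusted p = 0.966 for the first 3 and 0.99997 for the last). Without the male of pair 8, r was 0.267, -0.251, -0.204 and -0.667 in this order (limma, adjusted p = 0.665, 0.729, 0.741 and 0.218). The sign was then that seen in females for all but ENSMOCG00000017581. Within cohort 2, r was 0.368, -0.261, 0.0132 and -0.610 (limma, adjusted p = 0.636, 0.782, 0.991 and 0.422). In the 9 males, 0 of 14150 genes (0.0%) had a slope that passed limma's adjusted threshold, with 551 at an unadjusted p below 0.05. In edgeR 0 genes passed as well. Without the male of pair 8, 3283 genes had an unadjusted p below 0.05 and 0 passed (limma, smallest adjusted p 0.172). The females without pair 8 had 3578 such genes. Within cohort 2 the counts were 1884 in males and 2267 in females. Of the 117 genes with r above 0.8 in females, 65 had an r of the same sign in males, and of the 46 below -0.8 it was 27. Over all 14150 genes the sign was the same for 9766, a larger share than in either of these sets. Within the sets, 4 of 117 and 0 of 46 were past 0.8 in males too. The difference between the slopes of the sexes was not tested. Partners share a pair and a cohort, so their libraries are not independent of each other.

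The 4 named genes were then compared between 2-week paired and separated females. These groups share no cohort and differ in the time since pairing. Separation, that time and the cohort therefore cannot be told apart in this comparison. ENSMOCG00000019265 had 154.2 ± 37.6 normalised counts (SD, n = 9) in 2-week paired females and 173.6 ± 82.9 (SD, n = 12) in separated females. ENSMOCG00000017581 had 200.2 ± 34.3 (SD, n = 9) and 185.1 ± 56.6 (SD, n = 12) normalised counts in these groups. ENSMOCG00000004192 had 612 ± 108 (SD, n = 9) and 566 ± 106 (SD, n = 12), and ENSMOCG00000000314 had 288 ± 92.1 (SD, n = 9) and 281 ± 68.7 (SD, n = 12). The differences of separated minus 2-week paired females were 0.05, -0.15, -0.12 and -0.02 on the log2 scale, in this order, each smaller than its replicate spread (limma, adjusted p = 0.972, 0.875, 0.812 and 0.988). In that comparison 53 of the 14150 other genes passed the adjusted threshold (0.375%), 19 higher (0.134%) and 34 lower (0.24%) in separated females, and 6 did with the pair as a replicate block (0 higher, 6 lower). None of the 117 genes above 0.8 or of the 46 below -0.8 was among the 53 (0 genes). Their median log2 differences of 0.02 and -0.03 lay beside 0.00 for all genes. With 0.375% of all genes called, a count of 0 among these genes is near the background and is no result about them.

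With edgeR's quasi-likelihood test on the reads recovered from the table, 2 genes passed the adjusted threshold over the 9 females, both with negative slopes, and 1330 had an unadjusted p below 0.05. They are named here after their values were seen: ENSMOCG00000005700 (edgeR, adjusted p = 0.0215) and ENSMOCG00000007666 (edgeR, adjusted p = 0.00981). Both calls rest on the pair 8 female, which had 1740 and 505 normalised counts of these genes, while the other 8 females had 2.11 to 8.33 and 0 to 5.08. Without pair 8 their r was -0.145 and -0.475, and neither was called. Both genes were above 100 normalised counts in 11 of the 42 libraries, which were 1 female and 2 males of 2-week pairs, 4 separated females and 4 separated males. The males and separated females among these libraries had 0 reads of ENSMOCG00000017273, the pattern for which it was chosen. They therefore say nothing about a relation between the genes. Without pair 8, edgeR called 1 other gene, ENSMOCG00000020232, also named after its values were seen (positive slope, adjusted p = 0.00588; limma over all 9 libraries, adjusted p = 0.480). It had 60.3 normalised counts in pair 14 and 74.5 in pair 11, the females with most ENSMOCG00000017273, and at most 4.55 in the other 7. It was also read in separated animals, with up to 54.5 normalised counts in females and 141.2 in males. These animals had no read of ENSMOCG00000017273 by the way it was chosen, so they too say nothing about a relation.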

How the data were processed

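The authors deposited normalised counts (a signal: reads of a gene over the size factor of its library) for 42 libraries, made with DESeq2 and DESeq (no version) per the submitters' processing notes, and TPM for 51 libraries. The aligner, counter, genome build and annotation were not given in the sources used here. Within each column all values (100%, tolerance 0.01 of a read) were whole multiples of the smallest, which gave back the read counts of the deposited table. Since the values are scaled, limma on logs was the main test and edgeR on these counts an alternative. For the 2-week females, the labels and the table's columns differed on whether the female of pair 9 or pair 15 was included, and the columns were followed.

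Slopes and group differences were fitted with limma 3.58.1 (eBayes with trend and robust options, R 4.3.3) on log2(normalised count + 1) for genes with a mean normalised count of at least 10 over the 42 libraries, which left 14151 genes, with Benjamini-Hochberg adjustment over the 14150 besides ENSMOCG00000017273. The group comparison used all 42 libraries and the slopes 9 females or their 9 partners. Slopes on log2(value + 1) understate the change of low genes. edgeR 4.0.16 used TMM and the quasi-likelihood test. Correlations used exact permutation tests (scipy 1.17.1, two-sided). The fits were tested on simulated data. The label's pair name marks cohabiting partners, so the pair number pairs libraries by design; the consensus correlation of partners was 0.396. All females compared come from different pairs. The named genes were the 2 highest and 2 lowest by r over the 9 females, and the 2 whose share of 2-week paired females with a read most exceeded that of the other libraries. ENSMOCG00000017273, the lists and the tests were chosen with earlier results of these data known. Alternatives were other pseudocounts, filters, covariates, tools, single cohorts and leaving out single libraries. The lists of cell type markers could not be used without gene names. Nothing says how animals were drawn beyond 1 library each. The p-values therefore set a slope, difference or correlation against the variation between these libraries only.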

Additional observations from a re-analysis of the deposited data

Results flagged for a closer look

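Among the 9 females paired for 2 weeks, the level of ENSMOCG00000017273 in pair 8 lay apart from the others: log2(normalised count + 1) was 1.03 there and 4.27 in the next lowest library. This gap was 0.501 of the whole range, just above Dixon's 95% critical value of 0.49 for 9 samples. Chance sets off this criterion in about 1 in 20 groups, and it was met in 1 of 19 groups of values examined. The gene's normalised count without a log and its TPM in 2-week paired females were among the groups examined and did not meet it.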

How the results depend on the processing

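The count of 0 tracking genes in limma was also 0 with other pseudocounts, no filter, the first principal component, the read total or the cohort as covariate, cohort 2 alone, TPM and each female left out in turn (range 0 to 0); unadjusted counts ran from 261 with cohort as covariate to 3578 without pair 8. edgeR gave 2 genes, and 1 without pair 8, an alternative chosen after seeing the data. The SD of ENSMOCG00000017273, its correlations with the library measures and its on-off pattern without pair 8 were likewise added after seeing the data. In male partners the count was 0 with each male left out and 1 with the read total as covariate (ENSMOCG00000020973, limma, adjusted p = 0.0375). The 53 genes that differed between separated and 2-week paired females became 6 with the pair as a replicate block, 35 with no filter, 315 with the first principal component and 85 with the read total as covariate, and 33 in a fit of females only. Without cohorts 1, 2, 3 and 4 the counts were 26, 2, 4 and 3; the cause was not tested, and fewer libraries enter these 4 fits. Leaving out single libraries, the 6-week minus 2-week difference ran from -0.61 to 0.0162. The mean of ENSMOCG00000017273 then ran from 55.6 to 77.8 normalised counts and from 3.07 to 4.12 TPM at 2 weeks, and from 1.86 to 2.86 TPM at 6 weeks. Its r with the read total turned to 0.044 without the farthest 2 libraries. In male partners, r of ENSMOCG00000019265 turned to 0.368 in cohort 2 and ran from -0.599 to 0.267 with males left out singly (0.267 without pair 8), and that of ENSMOCG00000004192 to 0.174 with cohort as covariate and 0.0132 in cohort 2. That of ENSMOCG00000000314 turned to -0.0916 with a pseudocount of 5 and -0.610 in cohort 2. With males left out singly it ran from -0.667 (without pair 8) to 0.193. The log2 difference of separated females turned, for ENSMOCG00000019265, to -0.0925 without cohort 1 and -0.239 without cohort 3, for ENSMOCG00000017581 to 0.173 without cohort 2, and for ENSMOCG00000004192 to 0.000828 without cohort 4. For ENSMOCG00000000314 it turned to 0.0660 and 0.0511 with the first principal component and the read total as covariate, and to 0.0779 and 0.0238 without cohorts 1 and 3. None of these reversed values passed a threshold in either fit. The 4 named genes kept the sign of r in females in all 22 settings. They were named for extreme r over these same females, which the settings reuse, so the kept sign is a description and no support. At these depths, levels below about 3 reads in a library are not distinguishable from 0.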
